A study of Homo sapiens with 4 samples.

Results

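The integrated stress response was examined through 10 of its genes in MDA-MB-231 cells, a widely used line of triple-negative breast cancer. The genes were selected on their symbol in the authors' table, as ATF4, CHOP and their targets, and the list was drawn up when the authors' fold changes for KH-3 against DMSO were already known. Those fold changes are not used here, so the text describes how abundant these mRNAs were, in which transcript forms, and what their genes share in sequence, and it gives no response to the compound. All 10 genes had rows, with 31 of the 43596 transcripts and 10 of the 15113 gene symbols in the table.

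The cells had been treated for 24 h with DMSO, the solvent, or with 10 µM KH-3, an inhibitor of the RNA-binding protein HuR, in 2 biological replicates each. The methods also name a 5 µM group, which is not analysed here. The deposited value of each transcript is a mean normalized read count that the authors averaged over libraries, so a level from treated cells cannot be told apart from one of untreated cells. The lowest value listed was 7.34 and the median transcript had 50.8. With 1 pooled value per transcript there is no SD, no interval and no test for any level below, and a difference between levels cannot be set against replicate error. The label of the line was checked against its markers. VIM, AXL, CAV1 and CD44, genes of its mesenchymal state, had 21693, 11490, 6580 and 1837 reads, whereas ESR1, PGR and CDH1 had no row and ERBB2 had 141. PTPRC, a leukocyte gene, had no row, and PECAM1 and COL1A1, of endothelium and fibroblasts, had 27.9 and 128 reads.

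The integrated stress response starts when a kinase senses amino acid shortage, ER stress, viral RNA or heme lack and phosphorylates the initiation factor eIF2. Bulk translation then drops, but mRNAs with suitable upstream open reading frames, ATF4 above all, are translated more. ATF4 and the factors it induces switch on genes for amino acid supply and for feedback, and, when the stress persists, genes linked to cell death.

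ATF4 forms pairs with C/EBP factors on a composite element, TGATGNAAN, in many of its target genes. This element was looked for on both strands of hg38, in the 1000 bases before to 50 bases after each RefSeq start site. It was present for 8 of the 10 genes, and for 12.9% of the 10146 listed genes that have such a window. This stretch was chosen after the data were seen. The genes were picked as ATF4, CHOP and their targets, so many matches could be foreseen and their share is no test of the list. The following stretches of at most 29 bases of hg38 are shown 5′ to 3′ on the strand of the gene because they hold these matches. Capitals mark the match, which reads as the reverse complement where the element lies on the other strand. The 3 matches of TRIB3 have the same 29 bases around them, so 1 is printed.

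TRIB3, chr20:380881-380909, plus strand: ttagctccggTTTGCATCAcccggaccgg

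DDIT3, chr12:57520803-57520831, minus strand: gttgccaaacATTGCATCAtccccgcccc

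CHAC1, chr15:40953251-40953279, plus strand: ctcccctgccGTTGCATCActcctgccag

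ASNS, nearer match, chr7:97872458-97872486, minus strand: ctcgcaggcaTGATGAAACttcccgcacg

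ASNS, farther match, chr7:97873276-97873304, minus strand: atttcggtgcTGATGTAATtagtaaaata

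SESN2, chr1:28259211-28259239, plus strand: gtgaagtcccTTTTCATCAcgcaacccta

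ATF3, chr1:212565206-212565234, plus strand: aaggtcaggaTGATGGAAGgctgtcatat

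VLDLR, chr9:2621338-2621366, plus strand: agcaacgataGTTGCATCAgcgctaactg

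DDIT4, chr10:72272968-72272996, plus strand: tcctcggtccTGATGCAACcgtctggatc

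TRIB3 stood apart in having 3 copies, each 33 bases from the next, at 338, 371 and 404 bases before its nearest RefSeq start. At least 3 distinct matches were found for 0.187% of the listed genes (19 genes). The start sites searched for TRIB3, of which 381295 is the most upstream, lie downstream of these copies. The transcript that held most TRIB3 reads, ENST00000217233, starts at 380760 in GENCODE release 44, and that start was not among those searched. For this transcript the copies are not upstream but lie in its first exon, within its 5′ untranslated region. ASNS had a match at 68 and one at 886 bases before its nearest start, and the nearer one also lies in an exon of another ASNS model. The CHAC1 match, 210 bases before the start, lies in an exon of another CHAC1 model as well. The DDIT3 match, 304 bases before the nearest start, lies inside the gene span but in no exon. The VLDLR match lies 439 bases before the start, in an exon of the antisense gene VLDLR-AS1. That start, at 2621787, is the one of ENST00000382100, and the release 44 model of the leading VLDLR form, ENST00000382099, starts far downstream, at 2643160. This model has 2746 bases, against 3240 as listed, and no 5′ untranslated region. It therefore does not show where the counted form starts. The matches of SESN2 at 297 and of ATF3 at 191 bases lie in no annotated exon. The ATF3 match lies before the start at 212565407. The leading ATF3 form, ENST00000341491, starts far downstream of it in release 44, at 212608761. Neither of the 2 ATF3 start sites searched is near that start, so the bases before the leading form were not searched. The match of DDIT4, at 946 bases, lies in an exon of the unnamed gene ENSG00000289506.

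The count depended on the window. In the RefSeq windows of 250 bases before to 50 after the start, 3 of the 10 genes (CHAC1, ASNS and ATF3) had the element, and 2.78% of listed genes did. The stricter TGATGCAA, which overlaps the first motif, was found in the wider stretch for TRIB3, DDIT3, CHAC1, VLDLR and DDIT4, and for 2.59% of listed genes. A gene with several start sites has more sequence to match, and the 10 genes had a mean of 1.60 start sites against 1.45 for listed genes. Among genes with 1 start site, 4 of 5 of these genes and 10.0% of listed genes had the element. ATF4 itself and PPP1R15A had no match in this stretch, which says only that these letters were not there.

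**Figure D1:**
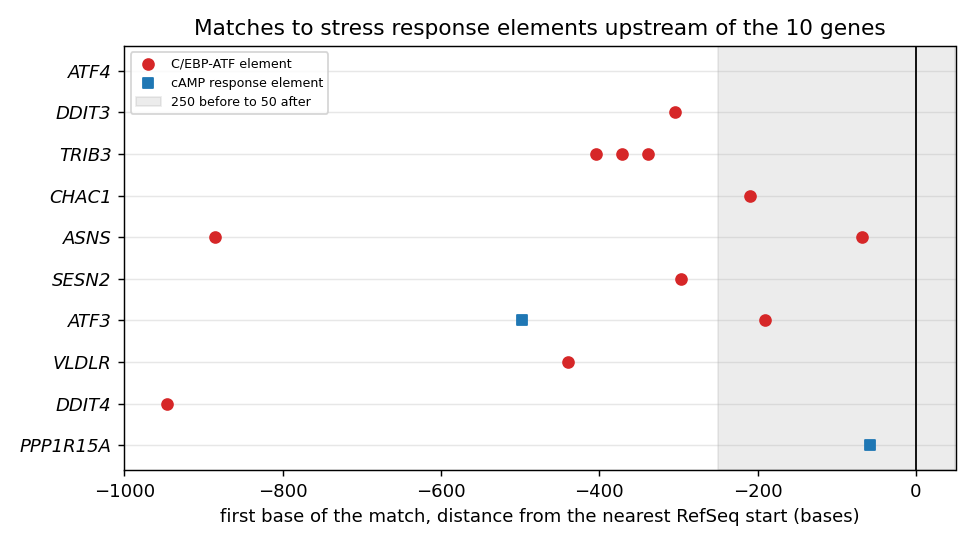
Positions of matches to the C/EBP-ATF element (TGATGNAAN, circles) and to the cAMP response element (TGACGTCA, squares) for each of the 10 genes, as distance in bases of the first matched base from the nearest RefSeq start site, with upstream to the left. The 3 TRIB3 circles sit between 338 and 404 bases upstream, and 3 circles (CHAC1, ASNS and ATF3) fall in the shaded window from 250 before to 50 after the start.

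The full cAMP response element TGACGTCA, the palindromic site of CREB and ATF dimers, was found for PPP1R15A and ATF3 in the wider stretch, and for 4.93% of listed genes. In PPP1R15A it lies 58 bases before the start, on chr19:48872353-48872380 of the plus strand. The bases there are shown because this was the match nearest to a start site among all those found for the 10 genes.

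PPP1R15A, chr19:48872353-48872380, plus strand: cctctcttcgTGACGTCAgcacgccggg

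This stretch also lies in the first exon of ENST00000600406, the less abundant listed form of PPP1R15A. The ATF3 copy lies 497 bases before one of its 2 start sites. The ER stress response element, CCAAT followed after 9 bases by CCACG, which ATF6 uses, had no match for any of the 10 genes and was found for 0.207% of listed genes.

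ATF4, the central factor of the response, was the most abundant of the 10 mRNAs. The gene (ENSG00000128272.14, chromosome 22, 39519695 to 39522683, plus strand) had 5880 mean normalized reads, or 3918 per kilobase, which put it at percentile 98.9 of all listed genes by reads per kilobase. The table listed 3 protein-coding transcripts. ENST00000396680.2 held 4799 reads, which is 81.6% of the gene, ENST00000337304.2 held 1072 and ENST00000404241.6 held 8.40. In release 44 all 3 have the same coding sequence of 1053 bases and differ in their untranslated ends. The release 44 model of ENST00000396680 has 1486 bases, against 1419 as listed, so its features may differ from those of the counted form. The model of the leading transcript has 6 upstream ATG triplets in a 5′ untranslated region of 364 bases, of which 4 open frames that stop before the coding sequence and 2 open frames that overlap its start. The model of ENST00000337304.2, with a 5′ untranslated region of 882 bases, has 7, of which 2 overlap. The MANE Select model of the gene, the transcript chosen jointly by RefSeq and Ensembl, had no row, and it has 3 upstream ATG triplets, 1 of them opening an overlapping frame. The model of ENST00000404241.6 has 6, of which 2 overlap.

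DDIT3 and ATF3 encode the other transcription factors of the set. DDIT3, which encodes CHOP, a factor linked to cell death under lasting stress, lies on chromosome 12 from 57516588 to 57521737 on the minus strand. It had 656 reads, and 708 per kilobase, since its transcripts are short. Its reads were spread over 4 forms, with 313 in ENST00000547303.5, 144 in ENST00000552740.5, 106 in ENST00000346473.7 and 93.7 in a form that release 24 had not yet classified (TEC). The leading form held 47.6% of the gene, less than the median of 65.6% among the 9608 genes with a coding and at least 2 listed transcripts. Release 44 models 3 of the 4 forms with the same coding sequence of 507 bases, the TEC form included, while ENST00000552740.5 has a longer one of 576 bases. Exons of MBD6 and MARS1 overlap DDIT3 on the opposite strand, and whether strand was used in counting is not given in the sources used here. MBD6 was listed with 502.5 reads, and reads of the overlap cannot be told apart by gene without strand. The unnamed gene ENSG00000285133 overlaps DDIT3 on the same strand, where strand would not separate the reads. Neither it nor MARS1 had a row under its release 44 name. The rows carry names of release 24, so this does not show that reads were absent.

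ATF3, a factor induced by ATF4 that in turn restrains many stress genes, had 189 reads and 95.5 per kilobase, at percentile 47.4. The gene lies on chromosome 1 from 212565334 to 212620777 on the plus strand. ENST00000341491.8 held 109 reads and ENST00000366987.6, which starts farther upstream, held 43.0. Both encode the same protein, of 543 coding bases, but their models differ in the 5′ untranslated region. The leading model has 0 upstream ATG triplets, and the model from the farther start has 5. The other 3 forms had 14.1 reads or fewer. ATF4 was 41.0 times as abundant as ATF3 and 5.53 times as abundant as DDIT3, per kilobase. With the leading transcript of each gene alone these ratios were 63.1 and 9.43.

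TRIB3 encodes a pseudokinase that binds AKT and ATF4 and is thought to limit the response. The gene (ENSG00000101255.10) lies on chromosome 20 from 362835 to 397559 on the plus strand. It had 944 reads, or 390 per kilobase, at percentile 79.1. Almost all came from the MANE Select transcript ENST00000217233.7, with 896 reads (94.9% of the gene), and ENST00000422053.3 had 48.2. Both models have 2 upstream ATG triplets whose frames stop before the coding sequence. Of the tribbles paralogs, TRIB1 had 118 and TRIB2 had 135 reads per kilobase, so TRIB3 was 3.29 and 2.89 times as abundant. With the leading transcript of each gene alone these ratios were 4.41 and 5.90.

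PPP1R15A, known as GADD34, brings protein phosphatase 1 to eIF2 and so ends the response. It was the second most abundant of the 10, with 3275 reads and 1408 per kilobase, at percentile 95.1. The gene lies on chromosome 19 from 48872212 to 48876059 on the plus strand. ENST00000200453.5 held 3078 reads and ENST00000600406.1 held 196. The MANE Select model has 2 upstream ATG triplets with frames that stop before the coding sequence. The constitutive partner of the same phosphatase, PPP1R15B, had 374 reads per kilobase, and PPP1R15A was 3.76 times as abundant. ATF4 and PPP1R15A together held 67.0% of the 13673 reads of the 10 genes.

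**Figure D2:**
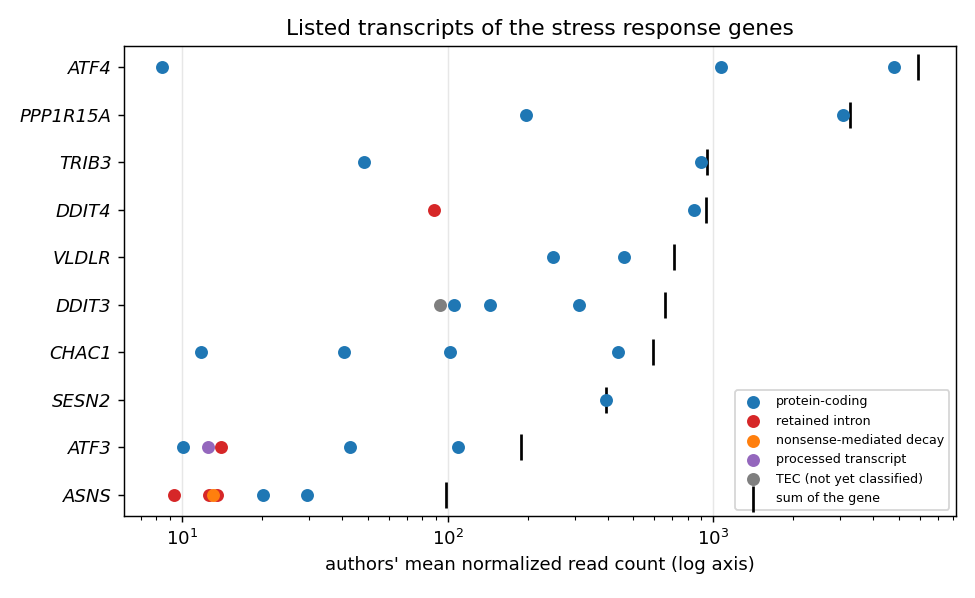
Authors' mean normalized read count of each listed transcript of the 10 genes (points, log axis), coloured by transcript type, with a black mark at the sum of each gene. ATF4 and PPP1R15A stand to the right with sums of 5880 and 3275, and the 6 forms of ASNS all lie at 29.6 reads or fewer, 4 of them not annotated as protein-coding.

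CHAC1 encodes an enzyme that breaks down glutathione and is induced through ATF4, ATF3 and CHOP. The gene, on chromosome 15 from 40952962 to 40956512 on the plus strand, had 591 reads and 411 per kilobase, a level close to that of TRIB3. The table listed 4 protein-coding forms, with 437 reads in ENST00000617961.1, 102 in ENST00000617768.4, 40.8 in ENST00000487220.1 and 11.8 in ENST00000446533.7. The leading form was not found in release 44. CHAC2, its constitutive paralog, had 330 per kilobase, and CHAC1 was 1.25 times as abundant, but with the leading transcripts alone the ratio was 0.884, so their order was not stable.

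DDIT4 and SESN2 both restrain mTORC1, the kinase complex that drives growth when nutrients are plentiful. DDIT4 (REDD1), on chromosome 10 from 72273919 to 72276036 on the plus strand, had 936 reads and 602 per kilobase. Of these 847 came from the coding transcript ENST00000307365.3, and 88.7 from a retained-intron form, ENST00000473155.1. SESN2, a leucine sensor on chromosome 1 from 28259518 to 28282491 on the plus strand, had 1 listed transcript, ENST00000253063.3, with 394 reads. Per kilobase this was 114, close to the median of all listed genes, 108. The sestrin paralogs SESN1 and SESN3 had 50.9 and 108 reads per kilobase. SESN2 was 1.05 times as abundant as SESN3 and 2.24 times as abundant as SESN1.

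VLDLR encodes a lipoprotein receptor whose level is known to rise under ER stress. The gene lies on chromosome 9 from 2621182 to 2660056 on the plus strand and had 710 reads and 170 per kilobase. The 2 listed forms differ greatly in length. ENST00000382099.2, of 3240 bases in the table, held 461 reads, and ENST00000382100.7, the MANE Select transcript of 9163 bases, held 249. Per kilobase the shorter form was at 142 and the longer at 27.2. LRP8, which like VLDLR is a receptor of reelin, had 131 reads per kilobase, and VLDLR was 1.30 times as abundant, or 2.48 times with leading transcripts alone. Exons of VLDLR-AS1, listed with 42.8 reads, overlap VLDLR on the opposite strand.

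ASNS, which makes asparagine from aspartate and is a classic ATF4 target, was the least abundant of the 10 in the listed rows. The gene lies on chromosome 7 from 97851677 to 97872542 on the minus strand. It had 98.3 reads over 6 forms and 70.8 per kilobase, at percentile 41.3. The coding forms ENST00000394308.7 and ENST00000394309.7 had 29.6 and 20.2 reads. The 3 retained-intron forms had 13.5, 12.6 and 9.29, and a form annotated for nonsense-mediated decay had 13.1. These 4 forms held 49.3% of the reads of the gene, a share above that of 87.8% of the genes with a coding and at least 2 listed transcripts, where the median was 5.35%. With coding transcripts alone ASNS was at 23.7 per kilobase. The unnamed gene ENSG00000284707, which had no row, overlaps ASNS exons on the same strand. Only listed rows are counted, and other ASNS transcripts are not analysed here.

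By type, 23 of the 31 transcripts were protein-coding, or 74.2%, against 60.4% of all listed transcripts. They held 98.1% of the reads of the 10 genes, against 85.9% over all genes. All 10 genes have a coding transcript, whereas the listed genes include some without one. These differences therefore cannot be read as a trait of the 10 genes. ATF4 and PPP1R15A, with coding forms only, held 67.0% of the reads of the 10. Forms of other types occurred in 4 genes, ASNS, DDIT3, ATF3 and DDIT4. The other 6 had coding forms only, and of these SESN2 had just 1 listed transcript. Among the 9608 genes with a coding and at least 2 listed transcripts, 33.2% had no reads in other types.

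Ordered by reads per kilobase, the 10 genes ran ATF4, PPP1R15A, DDIT3, DDIT4, CHAC1, TRIB3, VLDLR, SESN2, ATF3 and ASNS, over a range of 55.4 times. With coding transcripts alone the range was 165 times, and with leading transcripts 228 times. Its lower end is the ASNS value, which covers listed rows only. Neighbours such as CHAC1 and TRIB3, at 411 and 390, cannot be ranked without replicate values. Of the 10, 8 lay above the median of all listed genes, and ATF3 and ASNS lay below it. Their median percentile was 79.6 by reads per kilobase and 70.0 by reads. Among genes with a protein-coding transcript only, it was 63.1 by reads. ATF4 and PPP1R15A were in the top 10% of listed genes.

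**Figure D3:**
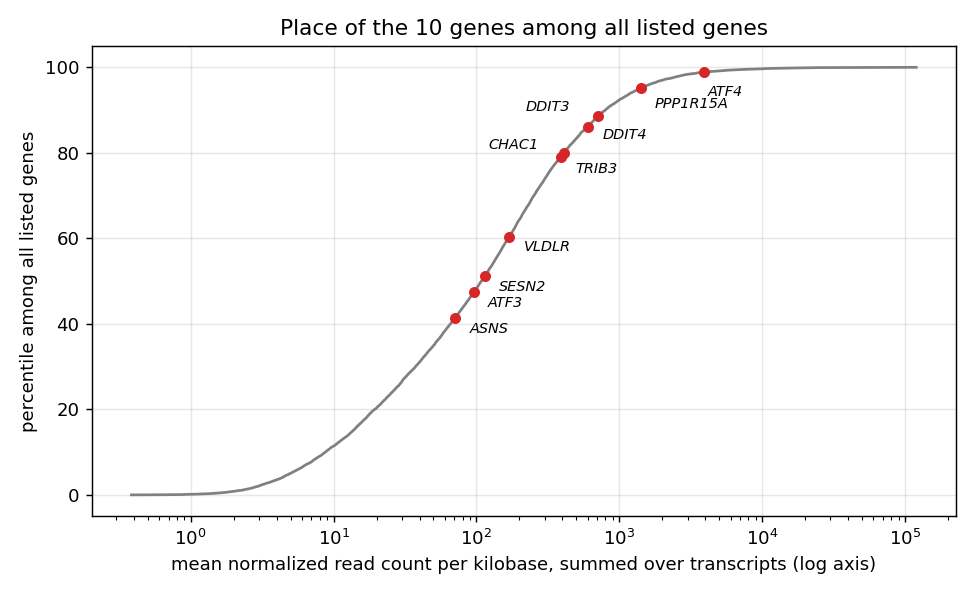
Percentile among the 15113 listed genes (y axis) against mean normalized read count per kilobase summed over the transcripts of a gene (x axis, log), with the 10 genes as points on the curve of all genes. They run from ASNS at 70.8 per kilobase and percentile 41.3 to ATF4 at 3918 and percentile 98.9.

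The untranslated regions bear on how these mRNAs are translated and on binding of HuR, which prefers AU-rich stretches. In the MANE Select models, 5 of the 10 genes had at least 1 upstream ATG triplet, against 41.4% of the 11778 listed genes with such a model. These were ATF4, DDIT3, TRIB3, PPP1R15A and SESN2, with 3, 3, 2, 2 and 1. Of the 10, 4 had 2 or more, against 22.0% of genes, and 2 (ATF4 and DDIT3) had a frame that overlaps the coding start, against 12.5%. The pentamer AUUUA, the core of AU-rich elements, occurred in the 3′ untranslated region of 6 of the 10, against 74.4% of genes. VLDLR had 12 in 6188 bases, ATF3 had 3 in 1220, DDIT3 had 2 in 216, PPP1R15A had 2 in 85, and CHAC1 and ASNS had 1 each. ATF4, TRIB3, SESN2 and DDIT4 had 0. The longer UAUUUAU, which contains it, occurred in DDIT3, CHAC1, ATF3 and PPP1R15A, and in 37.1% of genes. The median length of these 3′ regions was 793 bases, against 1366 over all genes with a model, and those of VLDLR and SESN2, at 6188 and 1689 bases, were above that median. The MANE Select model was the leading listed transcript for 6 of the 10 genes, and not for ATF4, DDIT3, CHAC1 and VLDLR. The model of the leading VLDLR form, ENST00000382099, has 1 AUUUA in a 3′ region of 566 bases. It is shorter than the listed form, with 2746 against 3240 bases. The model of the leading DDIT3 form, ENST00000547303, has 2 upstream ATG triplets and 0 overlapping frames. An overlapping frame was found in the models of the MANE Select form and of the TEC form of DDIT3, which held 16.1% and 14.3% of its reads.

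Related genes placed these levels in their pathway. All 9 genes for the eIF2 kinases, the phosphorylated subunit and its phosphatase lay above the all-gene median per kilobase, from EIF2AK3 (PERK, the ER sensor) at 134 to EIF2S1, the subunit itself, at 2756. EIF2AK1, the kinase that senses heme and mitochondrial stress, was at 618, 4.61 times the level of EIF2AK3 and 7.57 times by leading transcripts. Of 10 bZIP factors and partners, 9 were listed and 6 lay above the median, from NUPR1 at 31.1 to NFE2L2 at 754, and BATF had no row. ATF5, a paralog of ATF4 controlled by similar upstream frames, was at 213, and ATF4 was 18.4 times as abundant.

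Of 16 genes for amino acid synthesis, transport and one-carbon metabolism, 15 were listed and 12 lay above the median, with a median of 527 reads per kilobase. SLC38A2, a transporter of small neutral amino acids, was highest at 2241, ALDH1L2, a mitochondrial folate enzyme, was lowest at 1.79, and CBS had no row. PSAT1, of serine synthesis, was at 1390, which is 19.6 times the value of ASNS in its listed rows. With coding transcripts the ratio was 58.7, and with leading transcripts alone 77.8. Other ASNS transcripts are not counted, so these ratios may not hold for the whole ASNS mRNA. The 12 other stress targets ran from STC2 at 15.1 to GDF15, a secreted stress cytokine, at 2028, and 7 lay above the median. Of 8 genes of the unfolded protein response outside ATF4, 7 lay above it, from ERN1 (IRE1) at 58.8 to HSPA5, the main ER chaperone, at 3745, a level 0.956 times that of ATF4. With leading transcripts that ratio was 1.11, so the order of HSPA5 and ATF4 turned. Of 7 paralogs of the 10 genes, 6 were listed and 5 lay above it, from SESN1 at 50.9 to CHAC2 at 330, and DDIT4L had no row.

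**Figure D4:**
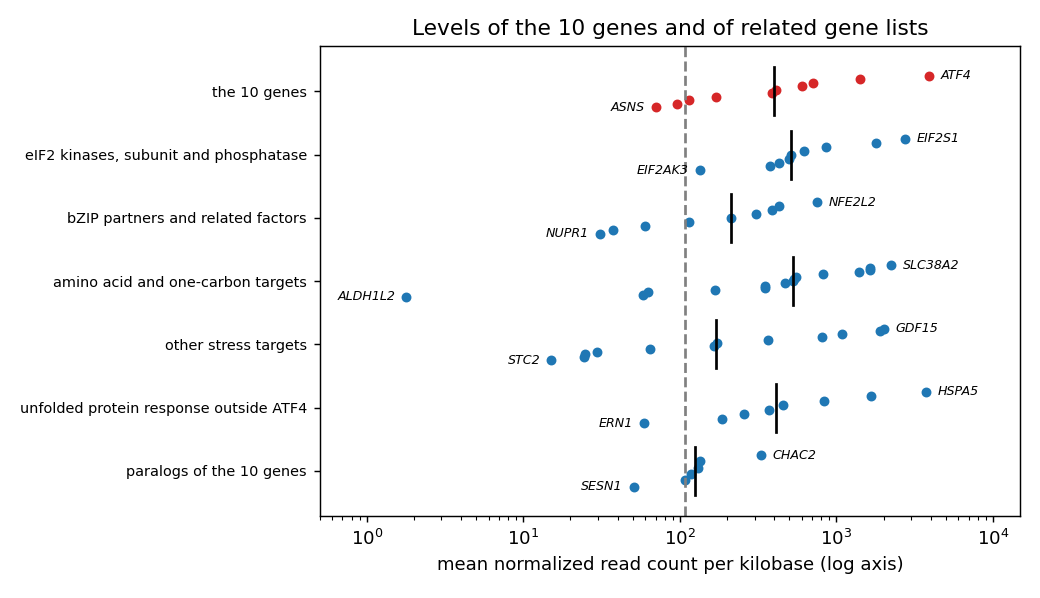
Mean normalized read count per kilobase (x axis, log) of the 10 genes (red) and of 6 related lists (blue), 1 point per listed gene, with a black line at the median of each list and a dashed line at the median of all listed genes, 108. The median was 400.4 for the 10 genes and 511 for the eIF2 kinases, subunit and phosphatase, and ALDH1L2 stands far to the left at 1.79.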

How the data were processed

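RNA-seq of 4 MDA-MB-231 libraries, 2 with DMSO and 2 with 10 µM KH-3, was examined through 1 deposited table. Per the methods, the authors mapped the reads to GENCODE release 24 transcripts with STAR at default parameters, used eXpress for the read counts of transcripts and DESeq2 for the group comparison. No versions are given in the sources used here. The signal used is the deposited mean normalized read count of each transcript, averaged by the authors over libraries that the table does not name. The table also holds the authors' log2 fold change, p-value and q-value of KH-3 against DMSO. These are the authors' own comparison and were not used, so no effect of KH-3 is given. A count test planned for the case of values per library was not run, since the table has none. Depth and replicate spread are unknown, and levels carry no error.

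Counts were summed over the listed transcripts of a gene, and counts per kilobase used the lengths in the table. RefSeq promoter windows (GRCh38.p14) and GENCODE release 44 models on hg38 gave sequence features, and all 35116 windows equalled the hg38 sequence. Of the listed transcripts of the 10 genes, 28 were found in release 44, and 14 of these had the listed length. Features of the other models may therefore differ from those of the counted forms. All 10 genes are named, and of each related list the genes with the highest and lowest level and those without a row. Other genes of those lists, and genes set beside a paralog, were chosen after their values were seen. A further paralog, first chosen with that list, is not reported here. The genes, lists and features were chosen with earlier results of these data known. The features of 5′ and 3′ untranslated regions, the cAMP response element, the ER stress response element and the wider upstream stretch were added after the table was seen. Gene sums and percentiles were tested on simulated data, and the motif search on planted motifs. The features of untranslated regions and the exon overlaps had no such test. The computations were run in Python 3.11.15 with numpy 2.4.6, pandas 2.3.3 and matplotlib 3.10.9.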

Additional observations from a re-analysis of the deposited data

How the results depend on the processing

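Of 70 recomputed levels of the 10 genes, 11 moved by over 1.5 times, all in 4 genes (ASNS, ATF3, DDIT3 and VLDLR). Of these, 7 came with the leading transcript alone taken for the gene. All 11 fell, but they came from alternatives that leave out transcripts, which can only lower a sum or leave it equal. ASNS moved most, from 70.8 to 14.9 reads per kilobase with its leading transcript, and to 23.7 with coding transcripts or with transcripts of 20 or more reads. The 10 genes kept their order per kilobase under every alternative except the leading transcript alone, where DDIT4 came before DDIT3 and TRIB3 before CHAC1. Their median percentile by reads was 70.0, and ran from 63.1 to 79.6 over its alternatives. The number of genes with the C/EBP-ATF element was 3 in the RefSeq window, 3 in its part before the start, 1 with TGATGCAA and 8 in the stretch of 1000 bases before to 50 after the start, an alternative chosen after seeing the data. A wider window holds more sequence, and the share of all listed genes rose with it. No paired analysis was possible because the table has no values per library, and for the same reason no replicate could be left out and another normalization or count test could not be run. The lowest listed value was 7.34 reads, the depth per library is unknown, and a gene without a row is not shown to be silent.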

Other observations

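The C/EBP-ATF element was also counted in the wider stretch of the related lists. Of the amino acid and one-carbon genes with a window, 6 of 11 had it, namely PHGDH, PCK2, SLC3A2, SLC7A1, SLC1A5 and SLC1A4. Of the eIF2 kinases, subunit and phosphatase, 3 of 7 had it, namely EIF2AK3, PPP1R15B and PPP1CB. Among bZIP factors and partners 2 of 7 had it (CEBPG and JDP2), among other stress targets 2 of 7 (STC2 and HERPUD1), and among genes of the unfolded protein response outside ATF4 1 of 8 (DNAJB9). None of 5 paralogs of the 10 genes had it. The share of all listed genes was 12.9%.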
